A study of Mus musculus with 24 samples.

Results

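Adipocyte differentiation is run by a small set of transcription factors, and the levels of 10 of their genes (Pparg, Cebpa, Cebpb, Cebpd, Klf15, Nr1h3, Rxra, Ebf1, Ebf2 and Ppara) are described here across white fat of mice with and without adipose FoxO1. The genes were taken by symbol from a table of 35275 genes, where each of the 10 has 1 row, and all 10 passed the filter on low values in every comparison. RNA came from gonadal and inguinal fat pads of conditional adipose FoxO1 knockouts and of controls whose Foxo1 gene was floxed but intact, so that floxed alleles were common to all groups. The 24 libraries fall into 4 groups of 6 (gonadal knockout, gonadal control, inguinal knockout, inguinal control). By their column names they come from 6 mice, knockouts M5, M9 and M12 and controls M6, M7 and M10, with 2 libraries from each pad. A mouse's 2 libraries were averaged, which leaves n = 3 mice per group. No strain, age, sex or Cre driver is given in the sources used here. The series was designed to identify genes and pathways under FoxO1 control.

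In the textbook order of events, C/EBPβ and C/EBPδ are induced early when a precursor becomes a fat cell, and they switch on PPARγ and C/EBPα, which maintain each other and turn on the genes of lipid storage. PPARγ binds DNA as a pair with the retinoid receptor RXRα, encoded by Rxra, which also partners the oxysterol receptor LXRα (Nr1h3) and the fatty acid receptor PPARα (Ppara). EBF1 and EBF2 act on the precursor and on fat cell identity, EBF2 with a known role in brown and beige fat, and KLF15 is a glucocorticoid-induced factor that raises PPARγ during differentiation. FoxO1 is held out of the nucleus by insulin signalling and is known to restrain early differentiation and to act on the Pparg promoter.

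Libraries held 14953657 to 25438811 reads assigned to genes. Levels are FPKM (fragments per kilobase of the listed gene length scaled to the library's assigned reads), so genes can be compared per length. Foxo1 read 4.01 to 4.46 FPKM in gonadal knockout pads against 7.87 to 13.6 in controls, and 2.49 to 5.69 against 13 to 19.7 in inguinal pads, without overlap in either depot (log2 differences -1.18 and -1.86, limma adjusted p = 0.407 and 0.129). All 8 adipocyte markers (Adipoq, Plin1 and others) were above 0 in all 12 pads, with sums of 1958 to 3485 FPKM in gonadal and 4896 to 6695 in inguinal fat. Markers of other cell types also differed between pads. The 8 macrophage markers summed to 5662 to 12081 FPKM in gonadal pads and 175 to 844 in inguinal pads. Epididymal transcripts (12 markers) summed to 6802 FPKM in the gonadal pad of M12, 2685 in that of M10, 444 in that of M6 and under 2 in the other 3 gonadal pads. Lymphocyte markers (9 genes) summed to 4.86 and 5.42 FPKM in the inguinal pads of M7 and M9 and to 210 or more in the other 4. In bulk tissue, fewer cells of a type and less RNA per cell cannot be told apart.

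Upstream sequence was searched for short motifs and is printed for 3 of the genes. RefSeq promoter windows (build GRCm38.p6, 250 bases before to 50 after a start) were present for 8 of the 10 members, 13 windows in all, and not for Cebpd and Ebf2. The 120 bases just before the start are given 5′ to 3′ on the plus strand for the third Pparg window, chr6:115421946-115422065, the most downstream of its starts, and for the C/EBP genes at chr7:35119173-35119292 (Cebpa) and chr2:167688795-167688914 (Cebpb). These stretches lie upstream of the start and overlap no annotated exon of the gene itself. Exons of other genes were not checked. Capitals mark a match to the C/EBP core, TTGCNNAA on either strand.
Pparg: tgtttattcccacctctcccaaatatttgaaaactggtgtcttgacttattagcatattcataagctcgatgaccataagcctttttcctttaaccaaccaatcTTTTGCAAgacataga
Cebpa: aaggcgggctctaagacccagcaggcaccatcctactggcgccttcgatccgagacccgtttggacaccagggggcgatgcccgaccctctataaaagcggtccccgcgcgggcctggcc
Cebpb: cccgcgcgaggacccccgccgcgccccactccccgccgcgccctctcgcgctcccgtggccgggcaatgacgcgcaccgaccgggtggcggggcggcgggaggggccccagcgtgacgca
The Pparg window held the C/EBP core at positions -215 and -16 from the start, and it was the only 1 of the 13 member windows to hold it, where 10.8% of all 32851 RefSeq windows of this length did. The FoxO element GTAAACA, searched on both strands, was in 0 of the 13 windows and in 3.65% of all windows. A GC box (CCCCGCCC, both strands) was in 4 of 13 windows (Rxra, Klf15, Ppara and the second of Pparg) and in 17.6% of all. The E-box CACGTG was in 1 of 13, that of Klf15 (positions -228, -172 and -3), and in 7.15% of all. The GC box and E-box were kept after the matches were seen, and a match is a run of letters, not a bound site.

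Cebpa was the most abundant of the 10 genes in every group and Ppara or Ebf2 the least. In inguinal control fat Cebpa averaged 642.6 FPKM ± 21.4 (SD, n = 3), which placed it 88th from the top of all genes in the table. Pparg followed at 127.2 ± 19.7 FPKM, then Cebpb at 75.95 ± 9.25 and Nr1h3 at 60.17 ± 2.36. Rxra (36.62 ± 2.04 FPKM), Klf15 (33.53 ± 4.28) and Ebf1 (25.1 ± 5.45) came next, and neighbours among these 3 lay within each other's spread. Cebpd averaged 14.46 ± 2.47 FPKM, and Ppara (4.45 ± 2.36) and Ebf2 (4.175 ± 0.553) closed the list without a separation between them.

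In gonadal control fat the order was different. Cebpa averaged 288.6 ± 32.1 FPKM and Cebpb 186.5 ± 72, with the highest Cebpb pad (262 FPKM, M7) above the lowest Cebpa pad (261, M10). Cebpd (48.75 ± 7.54 FPKM) stood level with Pparg (48.71 ± 10.3), and Nr1h3 (40.76 ± 2.76) and Rxra (32.41 ± 3.73) followed. Klf15 (14.99 ± 0.841) and Ebf1 (12.19 ± 3.93) were within each other's spread, while Ebf2 (1.853 ± 0.441) and Ppara (0.7527 ± 0.138) were lowest. The 2 libraries of a pad differed by at most 1.07 times for Pparg and 1.53 times for Ppara, whose pads held 90 to 1423 reads. Cebpd levels rest on a listed model of 1180 bases typed as a pseudogene, which ends 2565 bases short of the protein-coding gene of the GENCODE M21 annotation.

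**Figure D1:**
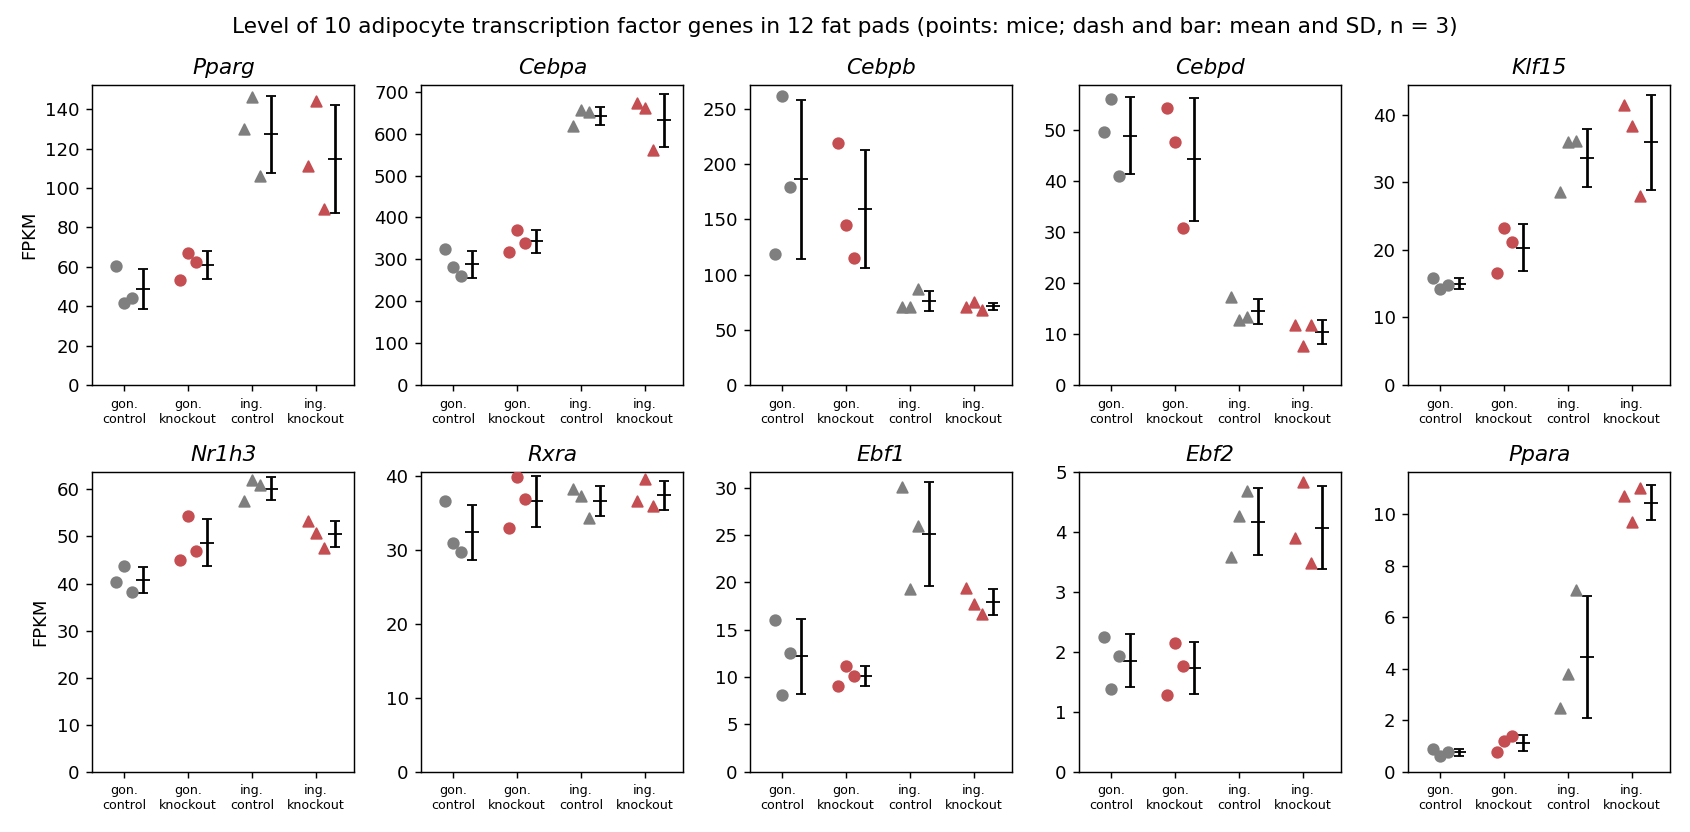
Level in FPKM (vertical axes, each from 0) of the 10 genes in the 4 groups (horizontal axes; gon., gonadal; ing., inguinal). Points are mice, left to right M6, M7, M10 in controls and M5, M9, M12 in knockouts, and the dash and bar give the mean and SD of 3 mice. Cebpb and Cebpd are higher in every gonadal pad than in any inguinal pad, and inguinal Ppara is 9.7 to 11 in knockouts and 2.48 to 7.06 in controls.

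Of the 10 genes, 9 differed between the depots in control mice, 7 with less and 2 with more in gonadal fat (limma on log2(FPKM + 0.5), Benjamini-Hochberg adjusted p under 0.05). Depot differences were widespread: 41.4% of 14505 genes passed in control mice, 14.5% lower and 26.9% higher in gonadal fat. The members' median log2 difference, gonadal over inguinal, was -1.02, against 0.18 over all genes. In knockout mice 8 of the 10 passed, 6 lower and 2 higher, with a median of -0.8 against 0.27 over all genes. There 47.8% of 14593 genes passed, 12.7% lower and 35.1% higher in gonadal fat.

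Pparg, the central regulator of the fat cell, was 60.5, 41.5 and 44.1 FPKM in gonadal fat of control mice M6, M7 and M10, and 130, 146 and 106 in their inguinal fat. All 3 inguinal pads lay above all 3 gonadal pads. Its log2 difference was -1.38 (SE 0.19, limma adjusted p = 0.00255) in controls and -0.89 (SE 0.19, limma adjusted p = 0.0112) in knockouts. Ppara, the receptor that drives fatty acid oxidation genes, had the steepest depot difference of the nuclear receptors. It read 0.882, 0.607 and 0.769 FPKM in the gonadal fat of the same control mice and 2.48, 3.80 and 7.06 in inguinal fat, a difference of -1.88 (SE 0.34, limma adjusted p = 0.00681). In knockouts the difference was -2.77 (SE 0.16, limma adjusted p = 0.000273).

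Nr1h3, which encodes LXRα, was 40.3, 43.7 and 38.2 FPKM in gonadal and 57.5, 62.0 and 61.0 in inguinal fat of control mice. It was lower in gonadal fat of controls by limma (log2 difference -0.56, SE 0.09, adjusted p = 0.00432). In knockouts its pads overlapped, at 44.9, 54.3 and 46.8 FPKM in gonadal and 53.3, 50.7 and 47.6 in inguinal fat, with a difference of -0.06 (95% interval -0.29 to 0.18, limma adjusted p = 0.646). Rxra, the shared partner, stood at 29.7 to 36.7 FPKM in gonadal and 34.3 to 38.2 in inguinal fat of controls, and at 33.0 to 39.9 and 35.9 to 39.6 in knockouts. Its depot difference was -0.18 (95% interval -0.44 to 0.08, limma adjusted p = 0.231) in controls and -0.03 (-0.26 to 0.19, limma adjusted p = 0.78) in knockouts.

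The C/EBP genes split by depot. Cebpa, the factor of the mature fat cell, was 324, 281 and 261 FPKM in gonadal fat of M6, M7 and M10 and 618, 657 and 652 in inguinal fat, a log2 difference of -1.16 (SE 0.13, limma adjusted p = 0.00162). Cebpb, an early factor that macrophages also express, went the other way, with 119, 262 and 179 FPKM in gonadal and 70.9, 70.4 and 86.6 in inguinal fat. Its difference was 1.22 (SE 0.29, limma adjusted p = 0.0165) in controls and 1.11 (SE 0.23, limma adjusted p = 0.0108) in knockouts. Cebpd, the other early factor, read 49.5, 55.9 and 40.9 FPKM in gonadal and 17.3, 12.7 and 13.4 in inguinal fat of controls. Its difference of 1.72 (SE 0.16, limma adjusted p = 0.000995) became 2.02 (SE 0.26, limma adjusted p = 0.00199) in knockouts. The Cebpa to Cebpb ratio in FPKM was 1.07 to 2.97 over the 6 gonadal pads and 7.53 to 9.58 over the 6 inguinal pads, so the depots did not overlap. The macrophage sums given above were also higher in every gonadal pad than in any inguinal pad, and their part in the Cebpb and Cebpd levels was not tested.

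Klf15 and the EBF genes were lower in gonadal fat in both genotypes. Klf15 read 15.9, 14.2 and 14.8 FPKM in gonadal and 28.6, 35.9 and 36.1 in inguinal fat of control mice, a log2 difference of -1.13 (SE 0.12, limma adjusted p = 0.00128). Ebf1 was 16.0, 8.12 and 12.5 FPKM in gonadal and 30.1, 19.3 and 25.9 in inguinal fat, with -1.04 (SE 0.27, limma adjusted p = 0.0249). In both depots M6 had the most Ebf1 of the control mice and M7 the least. Ebf2 was 2.25, 1.38 and 1.93 FPKM against 3.58, 4.26 and 4.68, a difference of -1.0 (SE 0.19, limma adjusted p = 0.00729). In knockouts the differences were -0.80 for Klf15, -0.80 for Ebf1 and -1.04 for Ebf2, all past the threshold (limma adjusted p = 0.0164, 0.00186 and 0.00673).

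**Figure D2:**
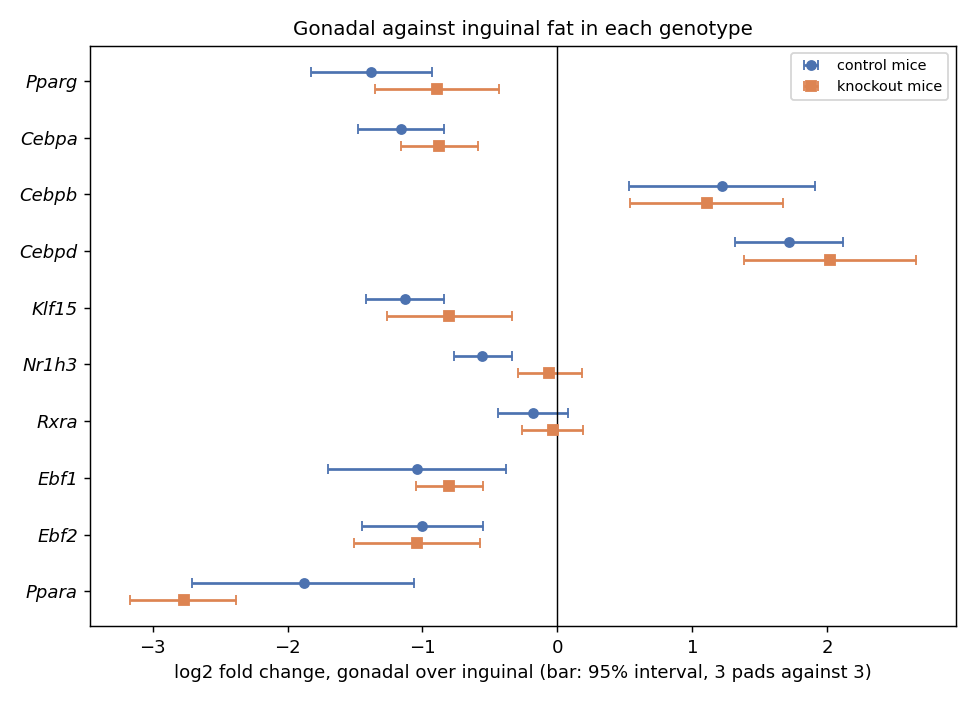
Log2 difference of FPKM + 0.5, gonadal over inguinal fat (horizontal axis), for each gene in control mice (circles) and knockout mice (squares), with 95% intervals from 3 pads against 3. Cebpb and Cebpd lie right of 0, Rxra spans 0 in both genotypes, and Ppara lies farthest left at -1.88 and -2.77.

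The scaling of the libraries moved these depot differences. With pad medians set equal, the median over all genes went from 0.18 to -0.12 in control and from 0.27 to -0.14 in knockout mice. All 10 members kept their direction under that scaling. Rxra then passed in both genotypes (-0.48 and -0.44), Nr1h3 passed in knockouts (-0.47), and Cebpb, at 0.92 and 0.70, no longer passed (limma adjusted p = 0.0554 and 0.0803). The calls also rested on few mice: without M10, 4 of the 10 members passed in controls, and without M5, 5 passed in knockouts.

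In gonadal fat none of the 10 genes passed the threshold between knockout and control, and none of 14851 genes did (0.0%; limma adjusted p for the members from 0.505 to 0.961). By point estimate 6 members were higher and 4 lower in knockouts, with a median log2 difference of 0.21 against -0.02 over all genes. At an unadjusted limma p under 0.05 there were 2 members, where 8.69% of all genes reached that level, and edgeR and DESeq2 called 0 members. DESeq2 called 2.11% of all genes here. Knockout and control pads did not overlap for 2 members, Klf15 and Nr1h3, which compares with 14.3% of all genes.

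Klf15 gave 16.5, 23.3 and 21.2 FPKM in the gonadal pads of knockouts M5, M9 and M12 against 15.9, 14.2 and 14.8 in controls M6, M7 and M10. The lowest knockout stood close to the highest control. The log2 difference was 0.42 (95% interval 0.08 to 0.75, limma adjusted p = 0.505), and a permutation of the genotypes over the 6 mice, exact and two-sided, gave p = 0.1, the smallest that 3 mice against 3 allow. Nr1h3 gave 44.9, 54.3 and 46.8 FPKM in knockouts and 40.3, 43.7 and 38.2 in controls. Its difference was 0.25 (95% interval 0.00 to 0.50, limma adjusted p = 0.568), again with an exact permutation p = 0.1.

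Pparg read 53.3, 66.9 and 62.6 FPKM in gonadal knockout pads and 60.5, 41.5 and 44.1 in controls, so that control M6 lay inside the knockout range. Its difference was 0.33 (95% interval -0.08 to 0.75, limma adjusted p = 0.651). Cebpa read 318, 371 and 340 FPKM against 324, 281 and 261, a difference of 0.25 (-0.04 to 0.54, limma adjusted p = 0.631). Ppara, at 0.786, 1.19 and 1.39 FPKM against 0.882, 0.607 and 0.769, differed by 0.36 (-0.15 to 0.87, limma adjusted p = 0.701), and Rxra by 0.17 (-0.11 to 0.46, limma adjusted p = 0.74). Control M6 had the most Pparg, Cebpa, Rxra and Ppara of the 3 control pads.

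The remaining gonadal point estimates were below 0. Cebpb spread widely within each genotype, at 219, 145 and 115 FPKM in knockouts and 119, 262 and 179 in controls, and its difference of -0.21 had a 95% interval of -1.08 to 0.67. Cebpd read 54.2, 47.5 and 30.7 FPKM against 49.5, 55.9 and 40.9, a difference of -0.17 (-0.74 to 0.40). Ebf1 differed by -0.21 (-0.80 to 0.38) and Ebf2 by -0.08 (-0.61 to 0.45). Without the pads of M12 and M10, which carried the most epididymal transcripts, Klf15 was at 0.37, Nr1h3 at 0.23 and Pparg at 0.25, and Cebpb turned to 0.01.

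The order of the gonadal pads was compared with that of the 10 marker sums after the values were seen. The closest sum is given for each gene in these pads, with some others. Pparg ranked the 6 gonadal pads exactly as the adipocyte markers did, from M9 through M12, M6, M5 and M10 to M7, so that 15 of 15 pairs of pads had the same order. For Cebpa, Klf15, Rxra and Ppara 14 of 15 pairs had the order of the adipocyte sum, and for Nr1h3 12 of 15. Nr1h3 was closer to the brown adipocyte sum, with 14 of 15 pairs. Cebpb ranked the same pads exactly as the macrophage markers did, from M7 through M5, M10, M9 and M6 to M12 (15 of 15 pairs). Cebpd matched the macrophage order in 12 of 15 pairs and that of the stromal progenitor sum in 13. Ebf2 followed the endothelial sum in 15 of 15 pairs and Ebf1 in 13 of 15. Ebf1 matched the lymphocyte sum in 13 of 15 pairs as well. In inguinal pads Pparg matched the adipocyte sum in 11 of 15 pairs and Cebpb the macrophage sum in 8 of 15. The closest sum there was another, that of skeletal muscle for Pparg (13 of 15) and of stromal progenitors for Cebpb (12 of 15).

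Per 1000 FPKM of adipocyte markers, Pparg was 21.4 ± 1.95 in gonadal knockouts, 22.0 ± 1.08 in gonadal controls, 20.5 ± 3.95 in inguinal knockouts and 20.9 ± 2.99 in inguinal controls (SD, n = 3 each). On that scale the depot difference of Pparg seen in FPKM lay within the spread. Other members turned round: Nr1h3 averaged 18.9 in gonadal and 9.89 in inguinal controls, Rxra 14.8 and 6.04, Cebpa 132 and 106, and Klf15 6.89 and 5.49, each higher in gonadal fat without overlap. In knockouts Nr1h3 and Rxra were again apart, while Cebpa and Klf15 overlapped. The adipocyte sum was 1958 to 2602 FPKM in gonadal and 5558 to 6695 in inguinal controls. A gene of equal FPKM in the depots therefore reads higher in gonadal fat on this scale. These values are not levels per fat cell, and the part of other cell types in them was not tested. Ppara stayed lower in gonadal fat, at 0.31 to 0.377 in controls against 0.447 to 1.17 in inguinal fat. Klf15 was 7.08 ± 0.386 and 6.89 ± 0.673 in gonadal knockouts and controls, and its 2 groups, apart in FPKM, overlapped. Nr1h3 was 17.1 ± 1.97 and 18.9 ± 3.41. Ebf1 was 3.55 ± 0.358 in gonadal knockouts and 5.47 ± 1.15 in controls, with no overlap between the pads (3.20 to 3.92 against 4.15 to 6.14). Ebf2 was apart as well, at 0.553 to 0.618 against 0.705 to 0.946. How many of all genes are apart on this scale was not counted, and in FPKM 14.3% were. The adipocyte sum was 2320 to 3485 FPKM in gonadal knockouts and 1958 to 2602 in controls. A gene of equal FPKM in the genotypes therefore tends to read lower in knockouts on this scale. The 8 adipocyte markers are themselves among the PPARγ and C/EBPα targets listed further on, so this scale is not independent of the members.

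**Figure D3:**
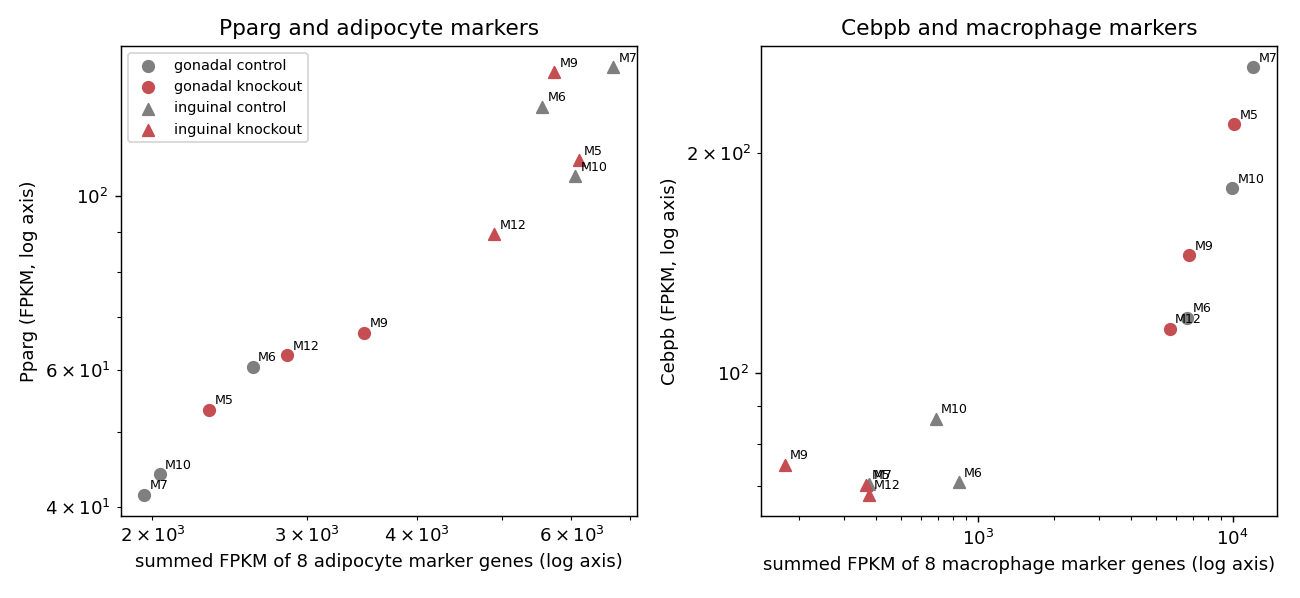
Pparg against the summed FPKM of 8 adipocyte markers (left) and Cebpb against that of 8 macrophage markers (right), each point 1 pad labelled by mouse, log axes. Circles are gonadal and triangles inguinal pads, red knockout and grey control, and the 6 gonadal pads have the same order on both axes in each panel.

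In inguinal fat none of the 10 genes passed by limma, where 3 of 13621 genes did (0.022%), and the members' adjusted p ran from 0.195 to 0.954. By point estimate 3 members were higher and 7 lower, with a median of -0.06 against -0.1 over all genes, and with pad medians set equal 6 were higher and 4 lower. At an unadjusted limma p under 0.05 there were 3 (Ppara, Nr1h3 and Ebf1), where 14.9% of all genes reached that level. Pads of the genotypes did not overlap for 3 members (Ppara higher, Nr1h3 and Cebpd lower in knockouts), which compares with 22.5% of all genes. edgeR called 0 members and DESeq2 called 1, Ppara, where it called 4.85% of all genes.

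Ppara had the largest difference of the set. It read 10.7, 9.70 and 11 FPKM in the inguinal pads of knockouts M5, M9 and M12, from 1331 to 1423 reads a pad, and 2.48, 3.80 and 7.06 in controls M6, M7 and M10. The knockouts were tightly grouped and the controls were not, and the groups did not overlap. The mean was 2.35-fold higher in knockouts and the log2 difference 1.25 (SE 0.33, 95% interval 0.45 to 2.05, limma adjusted p = 0.195), with an exact permutation p = 0.1. DESeq2 gave 1.35 with an adjusted p of 0.0109. Over the alternatives run the difference ranged from 0.94 to 1.61.

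Brown adipocyte markers (Ucp1, Cidea, Cox8b, Dio2, Elovl3 and Ppargc1a) are given beside Ppara because brown fat cells express much of it. Their sum was 850, 1130 and 935 FPKM in knockouts M5, M9 and M12 and 237, 924 and 863 in controls M6, M7 and M10. Controls M7 and M10 lay inside the knockout range of the sum, and M6 was lowest in both the sum and Ppara. By point estimate 5 of the 6 markers were higher in inguinal knockouts, with a median log2 difference of 0.80 against -0.1 over all genes, and 1 had an unadjusted limma p under 0.05. In gonadal fat their sums were 32.1 to 72.1 FPKM in knockouts and 11.6 to 23.1 in controls, without overlap. There 2 of the 6 were tested, both higher (median 1.2) and both at an unadjusted limma p under 0.05, and DESeq2 called 1, Cox8b. By limma and edgeR 0 of these markers passed in either depot. Skeletal muscle markers, another tissue rich in PPARα, summed to 8.04 to 347 FPKM in knockouts and 97.0 to 777 in controls, so these ranges overlapped. The part of brown adipocytes and muscle in the Ppara values was not tested. Per 1000 FPKM of adipocyte markers Ppara was 1.89 ± 0.307 in knockouts and 0.727 ± 0.385 in controls, without overlap (1.69 to 2.25 against 0.447 to 1.17). The Pparg to Ppara ratio was 8.12 to 14.8 in knockout and 15.1 to 52.2 in control inguinal pads, and 45.1 to 68.6 across gonadal pads of both genotypes.

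**Figure D4:**
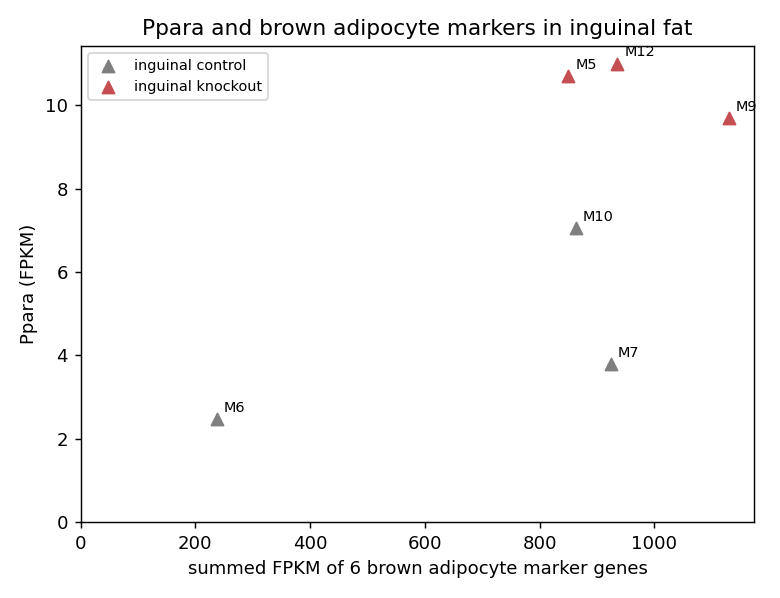
Ppara in FPKM against the summed FPKM of 6 brown adipocyte markers in the 6 inguinal pads, labelled by mouse (red, knockout; grey, control; both axes from 0). Knockout pads lie at 9.70 to 11 FPKM of Ppara and controls M7 and M10, with marker sums of 924 and 863, at 3.80 and 7.06.

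Nr1h3 read 53.3, 50.7 and 47.6 FPKM in inguinal knockout pads and 57.5, 62.0 and 61.0 in controls, a difference of -0.25 (95% interval -0.43 to -0.07, limma adjusted p = 0.219). The groups were apart on this scale but overlapped after TMM scaling, at 47.7 to 54.9 against 52.1 to 64.5, where edgeR gave -0.16 (adjusted p = 0.601). Ebf1 read 19.4, 17.7 and 16.7 FPKM against 30.1, 19.3 and 25.9, so that control M7 fell between the knockouts. Its difference was -0.45 (95% interval -0.86 to -0.04, limma adjusted p = 0.299), and after TMM scaling its groups did not overlap (16.8 to 19.9 against 20.1 to 27.3). On that scale 19.9% of 13621 genes did not overlap in inguinal fat. Cebpd read 11.8, 7.64 and 11.7 FPKM against 17.3, 12.7 and 13.4, apart on both scales, with -0.47 (95% interval -0.97 to 0.02, limma adjusted p = 0.355). Stromal progenitor markers, which mark cells known to express Ebf1, summed to 614 to 739 FPKM in knockout and 920 to 1114 in control inguinal pads, and their part in the Ebf1 and Cebpd values was not tested. Both genes had the order of that sum in 13 of 15 pairs of inguinal pads. Both were closer to the mesothelium sum, in 14 of 15 pairs, though it was only 2.29 to 3.53 FPKM in knockout and 3.30 to 5.51 in control pads. Cebpd also matched the epididymal sum (0.23 to 0.61 and 1.17 to 2.27 FPKM) in 13 of 15 pairs. Macrophage markers summed to 175 to 374 FPKM in knockout and 374 to 844 in control inguinal pads, and Cebpd matched their order in 13, Ebf1 in 11 and Nr1h3 in 9 of the 15 pairs; their part was not tested either.

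The other members were near 0 in this comparison. Pparg read 111, 144 and 89.3 FPKM in inguinal knockouts and 130, 146 and 106 in controls, a difference of -0.16 (95% interval -0.65 to 0.33, limma adjusted p = 0.771). Cebpa (674, 662 and 560 FPKM against 618, 657 and 652) differed by -0.03 (-0.32 to 0.26), Cebpb by -0.09 (-0.34 to 0.16) and Ebf2 by -0.04 (-0.42 to 0.34), and these 3 changed sign with pad medians set equal (0.09, 0.03 and 0.08). Klf15 (41.4, 38.3 and 28.0 FPKM against 28.6, 35.9 and 36.1) differed by 0.09 (-0.33 to 0.51) and Rxra by 0.03 (-0.15 to 0.21).

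**Figure D5:**
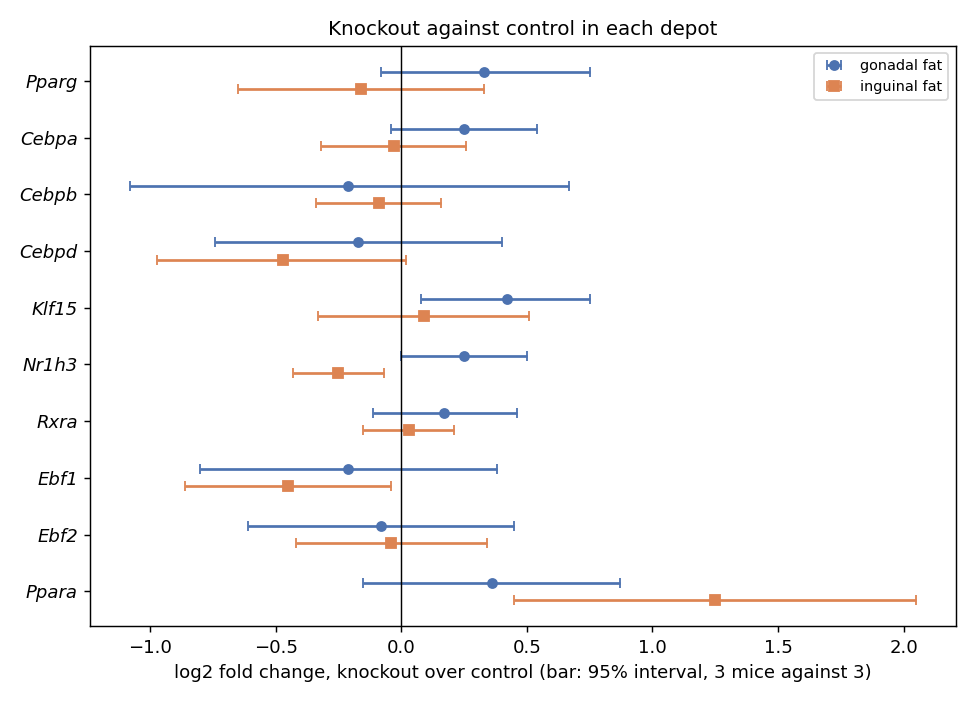
Log2 difference of FPKM + 0.5, knockout over control (horizontal axis), for each gene in gonadal fat (circles) and inguinal fat (squares), with 95% intervals from 3 mice against 3. Most intervals span 0; Klf15 and, just, Nr1h3 in gonadal fat and Ppara in inguinal fat lie right of 0, and inguinal Nr1h3 and Ebf1 left of it, none past the adjusted threshold.

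Whether the knockout effect differed between the depots was tested as an interaction over all 12 pads. None of the 10 genes passed, and none of 14577 genes did (0.0%; the members' limma adjusted p from 0.822). At an unadjusted limma p under 0.05 there was 1 member, Nr1h3, where 4.97% of all genes reached that level. Nr1h3 was 0.25 above control in gonadal and 0.25 below it in inguinal fat, an interaction of 0.50 (SE 0.12, 95% interval 0.23 to 0.78, limma adjusted p = 0.822). With pad medians set equal this was 0.40 with an unadjusted limma p of 0.0906. Pparg had the same point estimate of 0.50 with a wider interval (-0.13 to 1.12), and Ppara one of -0.89 (-1.78 to 0.00). A p above the threshold does not show that the depots respond alike.

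Family partners of the 10 were read from a list of 9 genes. Among the retinoid receptors, Rxra exceeded Rxrg by 8.01 to 13.6 times in gonadal and 2.49 to 3.76 times in inguinal pads, while its ratio to Rxrb was 1.25 to 2.19 in all pads. Nr1h3 stood at 0.822 to 1.31 times its paralogue Nr1h2 in gonadal and 1.25 to 1.80 times in inguinal pads. Ebf1 exceeded Ebf2 by 3.67 to 8.40 times. In the knockout comparisons the partners split 5 higher and 4 lower in gonadal fat (median 0.01) and 1 and 7 in inguinal fat (median -0.11), 4 and 4 with pad medians set equal. By limma and edgeR 0 passed, with 1 and 2 genes at an unadjusted limma p under 0.05. DESeq2 called 1, the myeloid factor Cebpe in inguinal fat, at 0.192, 0.101 and 0.272 FPKM in knockouts against 1.39, 0.572 and 1.35 in controls.

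Genes that PPARγ and C/EBPα are known to activate in fat cells (25 genes) were mostly higher in gonadal knockouts by point estimate, and none passed by limma: 20 were higher and 5 lower, with a median of 0.46 against -0.02 over all genes. By limma and edgeR 0 of the 25 passed, 13 had an unadjusted limma p under 0.05, and DESeq2 called 9, all higher. Over all genes 8.69% in gonadal and 14.9% in inguinal fat had an unadjusted limma p under 0.05. DESeq2 called 2.11% and 4.85% of them. These shares also stand beside the counts of the other lists. The adipocyte marker sum was 2320 to 3485 FPKM in gonadal knockouts and 1958 to 2602 in controls, and its part in these values was not tested. Pck1, the glyceroneogenesis enzyme, read 203, 209 and 249 FPKM in gonadal knockouts M5, M9 and M12 and 110, 83.5 and 88.7 in controls (log2 difference 1.23, SE 0.14, limma adjusted p = 0.395). Agpat2, which makes phosphatidic acid for triglyceride synthesis, read 194, 348 and 332 FPKM against 97.7, 116 and 76.6. Acsl1, which activates fatty acids, and Lpl, the lipase that releases them from lipoproteins, were also apart (120 to 191 against 71.9 to 85.0 FPKM, and 1500 to 2060 against 954 to 1050). In inguinal fat the list split 14 and 11 with a median of 0.07, 0 passed by limma or edgeR, 6 had an unadjusted limma p under 0.05 (4 higher and 2 lower), and DESeq2 called 4 (Agpat2, Fabp5 and Gpd1 higher, Cfd lower). Cfd, which encodes adipsin and is named here after its values were seen, averaged 4380 FPKM in inguinal knockouts against 11400 in controls (log2 difference -1.4, SE 0.33, limma adjusted p = 0.173) and was at -0.8 in gonadal fat. Agpat2 again stood apart there, at 990 to 1100 FPKM in knockouts and 336 to 670 in controls, while Lpl overlapped (2290 to 2520 against 2010 to 2490). Between depots in control mice, 23 of the 25 were lower and 2 higher in gonadal fat by point estimate. Their median was -1.48, against 0.18 over all genes. At a limma adjusted p under 0.05, 19 passed as lower and 2 as higher, where 14.5% and 26.9% of all genes did.

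LXR targets (12 genes, Nr1h3 itself among them) were split in both depots. In gonadal fat 7 were higher and 5 lower (median 0.03), and in inguinal fat 3 and 9 (median -0.21). By limma and edgeR 0 passed, with 4 and 7 genes at an unadjusted limma p under 0.05. Scd1, the desaturase, had the highest values, 3310, 7020 and 6060 FPKM in gonadal knockouts against 1860, 2180 and 1430, and 14900 to 17600 against 3810 to 11600 in inguinal fat. The cholesterol exporter Abca1 went the other way in inguinal fat, at 16.6, 16.6 and 17.0 FPKM in knockouts against 21.6, 22.0 and 21.8 (log2 difference -0.37, SE 0.06, limma adjusted p = 0.129), and Pltp and Apoe were lower there as well (35.7 to 40.8 against 49.5 to 78.9 FPKM, and 1590 to 1610 against 2170 to 2600). DESeq2 called Scd1 in gonadal fat and Scd1, Pltp and Apoe in inguinal fat. Macrophages also express Abca1 and Apoe, and the part of the lower inguinal macrophage sums in these values was not tested.

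PPARα targets were measured beside Ppara from a list of 17 genes, of which 13 were tested. In inguinal fat 5 were higher and 8 lower by point estimate, with a median of -0.09 (8 and 5, and 0.03, with pad medians set equal). None passed by limma or edgeR, 2 had an unadjusted limma p under 0.05, and DESeq2 called 2. These were Ucp3, a mitochondrial carrier, at 36.1, 36.7 and 37.2 FPKM in knockouts against 15.2, 26.4 and 23.9, and Vnn1, a pantetheinase, at 1.54, 1.08 and 0.92 against 3.66, 7.06 and 2.87, which differed in opposite directions. In gonadal fat 10 were higher and 3 lower (median 0.17), 0 passed by any of the 3 tools and 4 had an unadjusted limma p under 0.05. Angptl4, an inhibitor of lipoprotein lipase, was 55.1 to 81.6 FPKM in gonadal knockouts and 87.6 to 108 in controls.

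Other regulators of differentiation were split. Of 21 further adipogenic factors, 11 were higher and 10 lower in gonadal and 7 and 13 of 20 in inguinal fat (medians 0.02 and -0.16). Bhlhe40, a clock-linked repressor, read 35.3, 32.6 and 21 FPKM in inguinal knockouts against 11.7, 17.2 and 10.9 (1.12, SE 0.25, limma adjusted p = 0.162), and the clock repressor Nr1d1 48.2 to 53.6 against 34.9 to 38.1. Nfia and Tcf7l2 were lower there (8.64 to 9.26 against 11.6 to 13 FPKM, and 5.35 to 5.71 against 6.92 to 8.10). Of the factors that hold differentiation back, 10 of 12 tested were lower by point estimate in each depot, with medians of -0.13 and -0.27. Over all genes 44.2% were higher in gonadal and 29.4% in inguinal knockouts by point estimate, with medians of -0.02 and -0.1. Stromal progenitor markers were lower by point estimate for 9 of 9 tested in gonadal fat (median -0.33) and 8 of 9 in inguinal fat (median -0.53), and their part in this list's values was not tested. Snai2 read 1.32, 2.05 and 1.85 FPKM in inguinal knockouts against 3.69, 3.10 and 3.25, and Twist1 21.2 to 25.9 against 29.7 to 34.1. Glucocorticoid-induced genes, of which Klf15 is also a known kind, were 4 higher and 8 lower in gonadal and 3 and 9 in inguinal fat (medians -0.06 and -0.27). Tsc22d3 and Mt2 of that list were 26.5 to 27.9 against 37.6 to 46.4 and 33.2 to 40.2 against 44.4 to 58.4 FPKM in inguinal fat. Nuclear receptor coregulators were 4 higher and 10 lower in gonadal and 2 and 13 in inguinal fat (9 and 6 with pad medians set equal).

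None of these 4 lists had a gene past the threshold by limma or edgeR in either depot. At an unadjusted limma p under 0.05 they had, in gonadal and inguinal fat, 2 and 7 (adipogenic), 0 and 5 (anti-adipogenic), 1 and 3 (glucocorticoid) and 0 and 1 (coregulators) genes. Over all genes 8.69% and 14.9% reached that level. DESeq2 called Mt2 in gonadal fat and 8 genes of these lists in inguinal fat (Bhlhe40, Klf4, Nfia, Nr1d1, Tle3, Snai2, Mt2 and Tsc22d3). Of the FoxO genes other than Foxo1, Foxo3 read 8.41 to 10.1 FPKM in gonadal knockouts and 7.89 to 10.5 in controls, and Foxo4 13 to 13.9 against 12.6 to 17.7, overlapping in both cases. Foxo6, far lower in level, did not overlap, at 1.86, 1.59 and 1.69 FPKM in gonadal knockouts against 1.34, 1.56 and 0.595 in controls (log2 difference 0.46, SE 0.26, limma adjusted p = 0.696). Pads did not overlap for 14.3% of all genes in gonadal fat. In inguinal fat Foxo3, Foxo4 and Foxo6 each overlapped, Foxo6 at 0.43, 0.801 and 0.723 FPKM in knockouts against 0.23, 0.737 and 0.0827 in controls.

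Genes with the pattern most like each member were sought among 11775 genes over the 12 pads, with each depot centred on its own mean. The points share library scaling and the cell makeup of the pads, so the correlations are descriptions. Ebf1 was nearest to Tenc1 (Pearson r = 0.982), Pcolce2 (0.97) and Podxl2 (0.966), and Cebpb to Tmem185b (0.982), Tubb6 (0.954) and Twf1 (0.942). Cebpd was nearest to Hmgb1 (0.963), Klf15 to Ivd (0.957), Cebpa to Aifm2 (0.953) and Rxra to Mmp28 (0.946). Csad was among the 3 nearest genes of both Cebpa (0.936) and Klf15 (0.943). Ppara was nearest to Mtus1 (0.929), Pparg to Il17d (0.92), Ebf2 to mt-Atp8 (0.916) and Nr1h3 to Nnmt (0.915).

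The authors' deposited table of changed genes holds 4 of the 10 members in gonadal fat and 3 in inguinal fat. These are lists of 1808 and 2220 genes, from a series of 35275. In the gonadal one (1808 genes) the authors' deposited table gives a log2 fold change of 0.44 for Klf15 (adjusted p = 0.00117), 0.33 for Pparg (0.0454), 0.27 for Cebpa (0.0178) and 0.27 for Nr1h3 (0.0247). For inguinal fat (2220 genes) the authors' deposited table gives 1.07 for Ppara (adjusted p = 8.33e-06), -0.33 for Ebf1 (0.00575) and -0.34 for Cebpd (0.0414). Signs were the same as in the 3-mouse fit for all 7. Both rest on the same libraries, so the shared signs are no independent support. That table holds read counts of the 6 libraries of each group, 2 from each pad, where the fit here has 3 mice a group. The sources used here do not name its test, nor say whether the libraries of a pad were counted as replicates. Its p-values are therefore not comparable with those of the 3-mouse fit, by which none of these genes passed.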

How the data were processed

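The deposited values are FPKM for 35275 genes in 24 libraries, computed by the authors from read counts, listed gene length and assigned reads, per the file headers. Per the labels' protocols, an RNeasy kit gave the RNA and a NEBNext Ultra kit the libraries. CASAVA, STAR and mm10 are named in the submitters' processing notes, without versions. No source used here names the counter or says whether it used strand. The authors' deposited comparison tables hold read counts, each group's mean signal after size-factor scaling, log2 fold changes and p-values with their adjustment, for genes listed as changed, per the file headers. The 24 FPKM columns of those tables were not used.

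Column names were read as genotype (f, floxed; z, knockout), animal number and depot (e, gonadal; s, inguinal), which is an inference. They lack the labels' replicate numbers, so columns map to groups and the mouse (n = 3) was the replicate. Both libraries of a pad were averaged. Nothing states that mice came from separate litters.

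The test was limma 3.58.1 under R 4.3.3 (two-sided, with trend) of log2(FPKM + 0.5), on genes averaging 0.5 FPKM or more over the pads compared, Benjamini-Hochberg adjusted over all genes, threshold 0.05. Differences are on that scale and understate changes of low genes. Undoing the FPKM scaling returned whole read numbers in 100% of cells (tolerance 0.01), and edgeR 4.0.16 (TMM) and DESeq2 1.42.0 were run on these after adding up each pad's libraries. Precision at a pad is limited by 90 reads for the lowest member level. The fits were tested on simulated data with known changes.

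The members and the 9 pathway and 10 marker lists were chosen with earlier results of these data known. All 203 list genes were found, 2 of them by Ensembl ID. Named genes are the members, Foxo1, up to 4 genes of each list with the smallest p, and the 3 nearest genes of each member, of at least 1 FPKM. The marker sums per pad and the DESeq2 calls were named after their values were seen. Both pads of a mouse share its animal number, so depot comparisons and the interaction were also fitted with the animal as a replicate block. The deviations of a mouse's pads from their group means correlated at r = -0.1 to 0.14 over 13053 genes, so the pairing comes from the animal numbers rather than from shared deviations. The knockout comparisons set different mice against each other and have no pairing. Promoter sequences are RefSeq's (GRCm38.p6), and coordinates are on mm10, the same assembly. Alternatives were other pseudocounts and filters, equal pad medians, single libraries, leaving out each mouse, and, chosen after seeing the data, leaving out the pads of M12 and M10 in gonadal fat.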

Additional observations from a re-analysis of the deposited data

How the results depend on the processing

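With 3 mice a group, limits are set by variation between mice and by the makeup of the pads. In the knockout comparisons and the interaction, limma and edgeR called 0 members under every alternative, and DESeq2 called 1, inguinal Ppara (1.345). DESeq2 called more genes than limma in all 3, with 313 against 0 in gonadal fat, 661 against 3 in inguinal fat and 14 against 0 in the interaction; edgeR called 0, 2 and 0. Without the pads of M12 and M10, 1 gene passed in gonadal fat. The cause of these differences was not tested.

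Leaving out each mouse gave 0 to 1 genes in gonadal fat (1 without M10), 0 to 78 in inguinal fat (78 without M7, 0 without any other mouse), 1534 to 5257 between depots in control mice (4 to 9 members, lowest without M10) and 3047 to 5911 in knockout mice (5 to 8 members, lowest without M5). Each leave-out in the depot comparisons has fewer pads. Without M10, Nr1h3, Ebf2, Cebpa, Cebpb and Ebf1 were lost in controls, and Cebpb without M7. In knockouts Pparg, Ebf2 and Klf15 were lost without M5, and Klf15 and Cebpb without M9. With the replicate block, 5092 genes and 9 members passed in controls (6010 and 9 without it) and 6365 and 8 in knockouts (6971 and 8), and 0 in the interaction, so the block changed no member's call.

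Signs near 0 were not stable. In gonadal fat, leaving out mice moved Cebpb from -0.494 to 0.076, Cebpd from -0.336 to 0.068 and Ebf2 from -0.23 to 0.076, and Cebpb was 0.013 without the pads of M12 and M10. In inguinal fat the leave-out ranges were -0.337 to 0.004 for Pparg, -0.078 to 0.056 for Cebpa, -0.14 to 0.009 for Cebpb, -0.153 to 0.059 for Ebf2, -0.024 to 0.254 for Klf15 and -0.016 to 0.061 for Rxra. With pad medians set equal, edgeR and DESeq2, inguinal Cebpa was 0.09, 0.067 and 0.094, Cebpb 0.031, 0.001 and 0.03, and Ebf2 0.082, 0.053 and 0.083. In the interaction Cebpb ranged from -0.379 to 0.216 (0.101 without the pads of M12 and M10) and Ebf2 from -0.211 to 0.176. Between depots in knockout mice Nr1h3 ranged from -0.134 to 0.039 and Rxra from -0.07 to 0.025. DESeq2 also called Rxra between depots in both genotypes (-0.37 and -0.317) and Nr1h3 in knockouts (-0.337).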
